A study of Homo sapiens with 10 samples.

Results

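Rb occupancy in Kuramochi cells was compared between treatment with INX-315 and treatment with DMSO, using the 4 Rb samples of this line among the 8 Rb samples and 10 samples of the series. Kuramochi is an established human high-grade serous ovarian cancer cell line, labelled wild-type in genotype. The groups were DMSO at the matching volume (2 libraries) and the CDK2 inhibitor INX-315 at 300 nM (2 libraries), each after 2 days, and 1 IgG2a library of DMSO-treated Kuramochi cells served as the background list. Rb was mapped by CUT&RUN, in which an antibody directs a nuclease to the bound protein and the released DNA is sequenced. The other line of the series, OVCAR-3, has the same layout and is used here only for comparison with Kuramochi.

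Rb is a pocket protein that binds E2F transcription factors at promoters of genes for DNA replication and division and recruits repressive complexes there. Cyclin-dependent kinases, CDK4, CDK6 and CDK2 among them, phosphorylate Rb and release it from E2F, which lets cells enter S phase. Peak lists give occupancy only, so no expression of any gene below was measured.

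Each library has its own list of peaks, and 3 terms are used for them. A region is a stretch covered by overlapping peaks (at least 1 bp) of the 4 Rb lists on chromosomes 1 to 22 and X. A region is called kept when all 4 lists have a peak in it, gained when both INX-315 lists and neither DMSO list do, and lost in the reverse case. The height of a peak is the number of fragments at its summit divided by the mean number of fragments per base over the genome in that library. A promoter runs from 2000 bp upstream to 500 bp downstream of any annotated start site.

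The DMSO lists held 5196 and 8756 peaks on these chromosomes, and the INX-315 lists 15179 and 13363. Depth, taken as the genome-wide mean number of fragments per base, ranged from 0.216 to 0.445. INX-315 replicate 2 was the shallowest library and DMSO replicate 1 the deepest, although it had the shortest list. Both INX-315 lists were longer than both DMSO lists, with 2.05 times as many peaks on average. With 2 libraries a group an exact two-sided permutation test cannot give a p below 0.333, which is what it gave for the number of peaks, the covered length, the median peak width and the median height. The labelled groups are separate samples, and results within Kuramochi concern these 4 samples alone. The main limma fits below pooled the variance over regions, so their SEs and p-values do not measure the replicate spread of a single region. The comparison between lines uses all 8 Rb samples. The IgG2a list had 12 entries on these chromosomes, and none lay in a kept or gained region. Of 10 markers of serous ovarian epithelium, EMX2, MECOM, SOX17 and WT1 had kept promoter peaks and PAX8 a gained one, EPCAM had a peak in 1 INX-315 list, while KRT7, MUC16, FOLR1 and MSLN had no promoter peak. The promoters of PTPRC and CD3E, 2 of 3 leukocyte markers, had none either, and the other had peaks in both INX-315 lists and 1 DMSO list. PECAM1 and CDH5 (endothelium) and COL1A2, PDGFRB and DCN (fibroblast) also had none. VIM and COL1A1, the other fibroblast markers, had peaks in both INX-315 lists, and at 1 of them both DMSO lists had peaks too.

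The sequences below are examples from kept promoters that held an E2F motif near the summit. Each is 30 bases of hg38, read 5′ to 3′ on the strand of the gene, with the E2F motif in capitals (every match to one of the 4 forms TTTCCCGC, TTTCGCGC, TTTGCCGC and TTTGGCGC, or its reverse complement). They were chosen among members of the gene lists whose motif lay near the summit and outside annotated UTRs. The first 6 are from promoters whose height changed by about as much as the median region or more. The other 5 are from promoters that changed less. Windows at the summits of 283 of 4338 kept promoters (6.52%) held the motif, so most kept promoters had no match there.
TFDP1, chr13:113584622-113584651, plus strand: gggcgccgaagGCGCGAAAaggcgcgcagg
CAD, chr2:27217708-27217737, plus strand: gaccccgccatTTTCCCGCcagcgtacccc
RRM1, chr11:4095124-4095153, plus strand: tgcttcccgccTTTCCCGCaTTTCCCGCcg
GINS2, chr16:85688967-85688996, minus strand: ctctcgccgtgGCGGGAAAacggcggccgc
E2F1, chr20:33686400-33686429, minus strand: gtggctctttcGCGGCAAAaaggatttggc
TIMELESS, chr12:56449203-56449232, minus strand: gctgagtccctTTTCCCGCcacccggttta
CDT1, chr16:88803743-88803772, plus strand: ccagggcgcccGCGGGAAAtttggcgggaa
E2F8, chr11:19241129-19241158, minus strand: tccgactttccGCGCCAAAtttttaaatcg
TYMS, chr18:657603-657632, plus strand: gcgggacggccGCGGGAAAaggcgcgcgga
MASTL, chr10:27155579-27155608, plus strand: ggggcagaaagGCGGCAAAttgtatgcagt
DLGAP5, chr14:55191856-55191885, minus strand: tctgggggagaTTTCCCGCagcccagcttt

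Regions bound in both INX-315 lists and neither DMSO list far outnumbered the reverse. Of 17654 regions, 4517 (25.6%) were kept, 3513 (19.9%) were gained and 9 were lost. A further 3094 regions were in both INX-315 lists and 1 DMSO list, for 2787 of them DMSO replicate 2, and 6521 had other combinations, 805 of them DMSO replicate 2 alone and 95 DMSO replicate 1 alone. Most sites lay at promoters, namely 96.0% of kept and 88.1% of gained regions. Of the gained regions, 87 were exonic, 169 intronic and 161 intergenic.

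The number of gained regions depended on how many libraries had to meet the definition and on the length of the lists. Each library left out drops a condition, so a larger number then follows from the definition. Gained regions numbered 6320 without DMSO replicate 2, 5527 without INX-315 replicate 1 and 7213 without INX-315 replicate 2. Kept regions rose from 4517 to 7306 without DMSO replicate 1. When every list was cut to its 5196 peaks with the highest fold enrichment, which compares ranks only, 410 regions were gained and 247 lost. Presence in a list is a threshold on signal, so the height that a DMSO list would have needed to call a summit was computed for each gained region. The lower of the INX-315 heights reached that limit in 94.6% of gained regions, 1.5 times the limit in 68.7%, 2 times in 40.4% and 3 times in 11.4%. Gained regions had by definition passed the calling threshold of both INX-315 lists. Reaching the DMSO limit was therefore largely fixed by that choice and is not separate support. A peak must also be wide enough to be called, so this limit is not a strict bound.

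**Figure D1:**
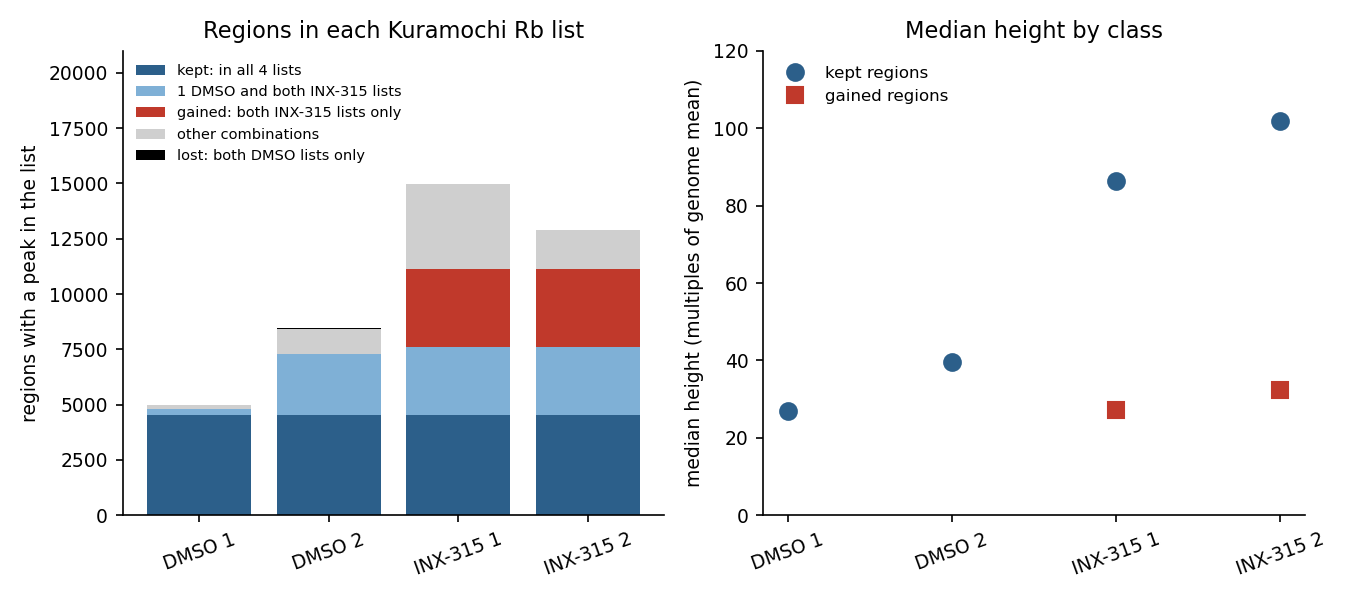
Left, number of regions with a peak in each of the 4 Kuramochi Rb lists, stacked by class. Right, median summit height (multiples of the genome mean) of kept and gained regions in each library: both INX-315 libraries, at 86.4 and 102, sit above both DMSO libraries, at 27.0 and 39.5, for kept regions.

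Kept regions were higher under INX-315 almost throughout. Their median heights were 27.0 and 39.5 in the DMSO libraries and 86.4 and 102 in the INX-315 libraries. The groups did not overlap in these medians, and in 4346 of the 4517 kept regions (96.2%) both INX-315 heights were above both DMSO heights. In limma with Benjamini-Hochberg adjustment, 4057 of 4517 regions were heightened (89.8%) and 0 were lowered (0 also at an unadjusted p under 0.05). The median difference was 1.49 on the log2 scale, or 2.82-fold. It was at least 2-fold in 3810 regions, at least 3-fold in 1898 and at least 4-fold in 528. The peaks of kept regions were also wider, with medians of 525 and 798 bp under DMSO and 1124 and 1026 bp under INX-315. The summits stayed close, with a median distance of 62 bp between the mean summits of the groups.

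This rise was common to nearly all regions and therefore rests on 2 libraries against 2. The replicates of a group already differed in scale, with a median log2 difference of -0.56 between the DMSO libraries and of -0.23 between the INX-315 libraries (replicate 1 minus replicate 2). Leaving out INX-315 replicate 1 left 1765 of 4515 regions heightened, and leaving out INX-315 replicate 2 left 469 of 4530, with median differences of 1.61 and 1.39. The peak lists hold no scale common to the libraries, so a change of all regions together cannot be told apart from a change in the share of fragments that lie in peaks. Heights were therefore also centred on the median region of each library, which leaves only differences among regions. After centring, 98 regions were above the median change (2.17% of those tested) and 185 below it (4.10%).

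**Figure D2:**
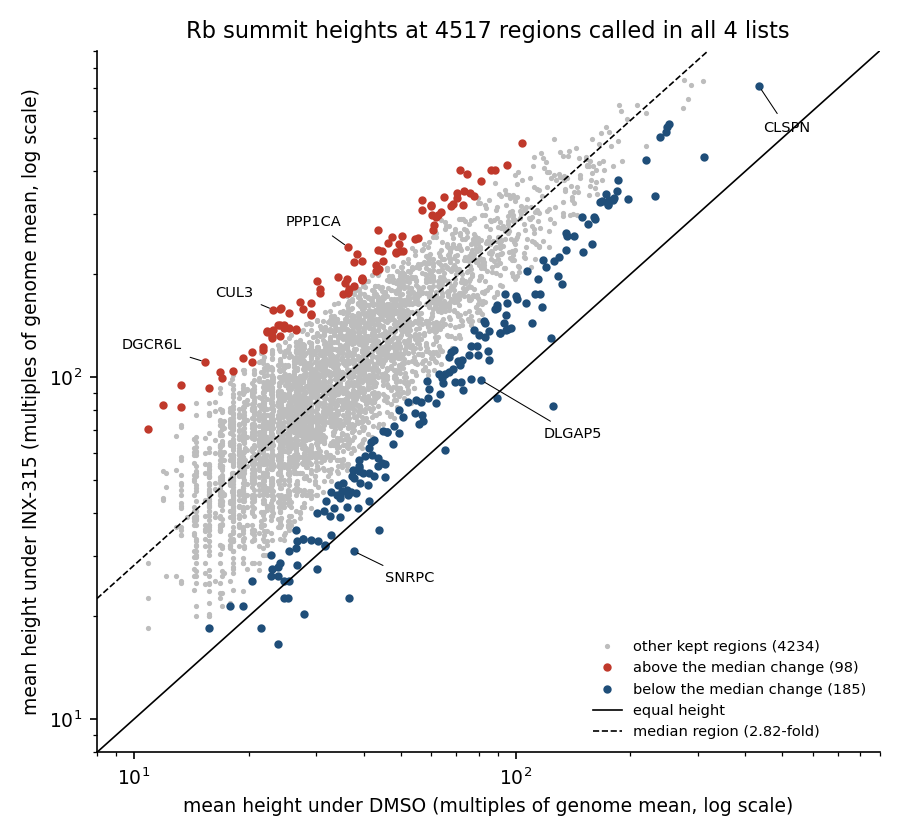
Each point is 1 of the 4517 kept regions, with the geometric mean height of the DMSO libraries on the x axis and of the INX-315 libraries on the y axis (multiples of the genome mean, log scales). Nearly all points lie above the line of equal height, around the dashed line of the median region at 2.82-fold. Red and blue mark the 98 and 185 regions above and below the median change (limma on centred heights).

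The promoter of DGCR6L had the largest difference among heightened promoters. Its DMSO heights were 11.2 and 21.1 and its INX-315 heights 91.4 and 134 (log2 difference 2.85 ± 0.43 SE, adjusted p = 3.45e-08 in limma). The promoter of IL1RAP, an accessory subunit of the interleukin-1 receptor, went from 13.5 and 13.2 to 121 and 74.1 (2.83 ± 0.42). In both, every INX-315 value was more than 3 times every DMSO value. The shared promoter of the histone genes H2AC14 and H2BC14 had heights of 13.5 and 10.5 under DMSO against 59.3 and 116 under INX-315. CUL3, the scaffold of a family of ubiquitin ligases, had 15.7 and 34.2 against 141 and 176. PPP1CA, a catalytic subunit of protein phosphatase 1, the phosphatase that removes phosphates from Rb, had 35.9 and 36.9 against 235 and 245. These values are on few fragments under DMSO (5 and 8 at DGCR6L, 16 and 14 at PPP1CA). The other 10 of the 15 promoters with the largest differences were those of ILKAP, CREG1, DMRTA1, NBPF9, ANTXRL, CYSRT1 with RNF208, NBPF1, HMG20B with MFSD12, DOP1B and HOOK1, with log2 differences from 2.60 to 2.71. NBPF9 and NBPF1 belong to a repeated gene family, and fragments of its copies may be split or shared between them. Centring shifts every log2 difference by the same amount, so these 15 remained the largest by construction. All 15 also passed the threshold there, which is not separate support.

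A smaller set of promoters was as high under DMSO as under INX-315. SNRPC, a subunit of the U1 splicing particle, had DMSO heights of 27.0 and 52.7 and INX-315 heights of 29.6 and 32.4. Its log2 difference was -0.28 ± 0.42 (adjusted p = 0.502 in limma), or -1.81 relative to the median region (adjusted p = 0.00168 in limma). DDB2, a DNA damage recognition protein, had 106 and 145 against 111 and 153, a log2 difference of 0.08 ± 0.46, or -1.45 relative to the median region (adjusted p = 3.06e-05 in limma). The DMSO and INX-315 values overlapped at both promoters, on 45 to 55 fragments in 3 of the 4 libraries at DDB2. A region at a start of WRAP53, a telomerase cofactor gene, had 31.5 and 34.2 against 32.1 and 37.1. MAT2B, MAMSTR, ZSCAN5A, ZNF79, CD248, TNNT1, SET and FUZ were the other protein-coding genes among the 15 promoters furthest below the median change, with centred log2 differences from -1.36 to -1.74. The other 4 were promoters of CDK5R2-AS1 and of genes without a symbol. A gene can have several promoter regions, and WRAP53, MAT2B, MAMSTR, SET and FUZ each had another one with higher INX-315 peaks.

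Regions below the median change were more frequent away from promoters and among the highest DMSO peaks. They made up 16.4% of 61 kept intronic regions and 12.2% of 74 intergenic ones, against 3.76% of 4338 promoters. With kept regions split into 4 bins by DMSO height, the share below was 9.32% in the highest bin and 0.956% in the lowest, and the share above was 3.02% and 1.82%. DMSO height is itself part of the difference and sets the number of fragments, so these shares are a description only. An intergenic region 4.25 kb from the start of SSTR5, chr16:1082670-1083602, had DMSO heights of 27.0 and 50.0 against 22.2 and 23.2 with INX-315. Another, 24.1 kb from DHRS7B, chr17:21098905-21099880, had 85.4 and 184 against 86.4 and 78.7. Both were below the median change by more than 2 on the log2 scale (-2.22 and -2.13). The calls relative to the median region need all libraries: without DMSO replicate 1, INX-315 replicate 1 or INX-315 replicate 2 there were 0 in either direction, and without DMSO replicate 2 there were 78 above and 95 below.

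Genes of the cell cycle, replication, repair and chromatin were mostly bound before treatment. Of 320 genes in 19 lists of these functions, 217 (67.8%) were kept, against 4952 of 19962 protein-coding genes (24.8%). Only 5 of the 320, RAD51D, CENPW, SGO1 and TET1 among them, had no promoter peak in any list, against 37.8% of all genes. At the 217 kept promoters 189 were heightened (87.1%, against 91.3% of all genes with a kept promoter region), with a median log2 difference of 1.39 against 1.51 over the same genes. Relative to the median region, 19 (8.76%) were below and 2 (0.922%) above, against 183 (3.67%) and 112 (2.24%) of 4989 genes. Their median DMSO height was 48.6 against 33.3 over all genes, and the part of this height in the difference was not tested. For each list below, the shares over all genes are 24.8% kept, 14.0% gained and 91.3% heightened among genes with a kept promoter region.

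**Figure D3:**
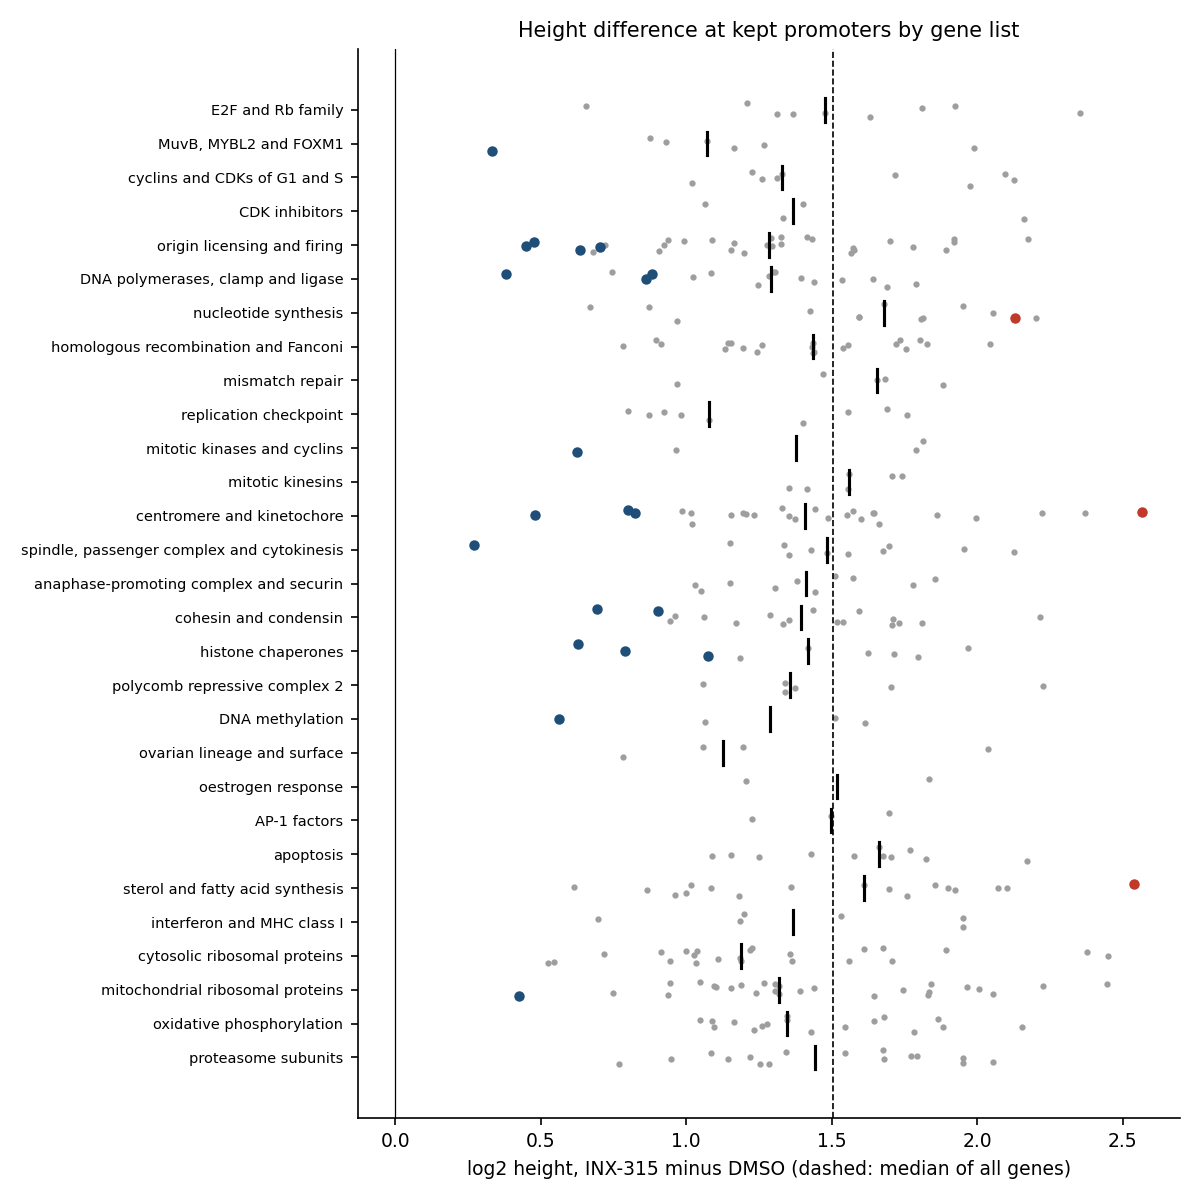
Log2 height difference (INX-315 minus DMSO, x axis) at the kept promoter of each gene, by list. Short black bars are list medians, the dashed line is the median over all genes with a kept promoter region (1.51), and blue and red points are below and above the median change after centring. Origin licensing has 4 blue points, and ZWINT, CTPS1 and MSMO1 are the red ones.

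In the E2F and Rb family, 9 of 13 genes were kept, 8 of these were heightened (88.9%, against 91.3% over all genes), and 2 were gained. E2F1, the activator that Rb restrains, had DMSO heights of 85.4 and 134 and INX-315 heights of 279 and 394 (log2 difference 1.63 ± 0.46, adjusted p = 0.000966 in limma). RBL1, the gene of the Rb relative p107, had 142 and 174 against 319 and 412, and RB1 itself had 29.2 and 57.9 against 128 and 162. The groups did not overlap at any of these, as in 96.2% of kept regions. TFDP2, a dimer partner of the E2Fs, had 22.5 and 29.0 against 131 and 130, the largest difference in the list (2.35 ± 0.44). E2F8, a repressive E2F, was kept but not called heightened, with 53.9 and 52.7 against 101 and 69.5 (adjusted p = 0.150 in limma). The gained genes were E2F5, with 42.0 and 32.4 under INX-315, and RBL2, the gene of the Rb relative p130, with 17.3 and 23.2.

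All 7 genes of the list of MuvB, MYBL2 and FOXM1 were kept, and 5 were heightened. MuvB is the core that joins E2F4 and p130 in the DREAM repressor complex, or MYBL2 and FOXM1 in the activator. LIN9 had 31.5 and 44.8 with DMSO against 141 and 157 (1.99 ± 0.45). LIN37, by contrast, had 27.0 and 73.7 against 56.8 and 55.6, with overlapping groups, and was below the median change (-1.19, adjusted p = 0.0163 in limma). MYBL2 had 65.2 and 92.2 against 163 and 185. The median difference of the list, 1.07, was below that of all genes, 1.51.

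Among the 13 cyclins, CDKs and regulators of G1 and S phase, 9 were kept and 9 of the 9 were heightened, where 91.3% of all genes with a kept promoter region were. CCNE2, a cyclin partner of CDK2, had 261 and 319 with DMSO against 709 and 722, above the other genes of its list in every library. CCNE1 had 44.9 and 57.9 against 193 and 208, CCNA2 had 20.2 and 23.7 against 93.8 and 97.3, and CDK2 had 29.2 and 50.0 against 86.4 and 92.6. At each of these both INX-315 values were above both DMSO values, as in 96.2% of kept regions. CDK6 was gained (29.6 and 32.4), and CCND1 and CDK4 had a peak in DMSO replicate 2 and in both INX-315 libraries.

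The 7 CDK inhibitors split into 4 kept and 3 gained genes, and gained genes made up 14.0% of all 19962 protein-coding genes. CDKN2C, the gene of p18, rose from 40.4 and 52.7 to 200.1 and 213 (2.16 ± 0.46, adjusted p = 2.56e-05 in limma). CDKN1B, the gene of p27, had 20.2 and 29.0 against 44.5 and 83.4. CDKN1A (p21) was gained with 29.6 and 50.9, CDKN2B (p15) with 44.5 and 46.3 and CDKN1C (p57) with 17.3 and 32.4. The lower INX-315 height was 2.81 times the DMSO limit at CDKN2B, 1.41 times at CDKN1A and 1.31 times at CDKN1C.

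Origin licensing and firing was the list bound most completely before treatment among those of 10 genes or more, with 30 of 31 genes kept, and ORC5 (24.7 and 32.4 under INX-315) gained. Of the 30, 24 were heightened, with a median log2 difference of 1.28 against 1.51. CDC6, which loads the MCM helicase, had 115 and 174 with DMSO against 259 and 347 (1.09 ± 0.47, adjusted p = 0.0229 in limma). CDC7, the kinase that fires origins, had 157 and 200.1 against 405 and 551. GINS1, a subunit of the active helicase, had 31.5 and 42.1 against 146 and 185, the largest difference of the list (2.17 ± 0.45). The 4 members below the median change were CLSPN, MCM2, MCM7 and TOPBP1. CLSPN, the checkpoint adaptor claspin, had 319 and 593 against 637 and 787 (0.70 ± 0.47, or -0.82 relative to the median region, adjusted p = 3.76e-05 in limma). MCM7 had 115 and 219 against 225 and 269, and MCM2 had 40.4 and 60.6 against 56.8 and 83.4. The groups overlapped at MCM2 but not at CLSPN and MCM7, and 96.2% of kept regions showed no overlap. CLSPN and MCM7 were thus higher under INX-315 in the samples, but by less than most. CDT1, the other licensing factor, had 40.4 and 55.3 against 93.8 and 64.8 and passed neither test.

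DNA polymerases, clamp and ligase had 16 of 23 genes kept and the other 7 in 1 DMSO list and both INX-315 lists. LIG1, the replicative ligase, had 173 and 221 with DMSO against 561 and 574 (1.54 ± 0.47, adjusted p = 0.00183 in limma). PCNA, the sliding clamp, had 115 and 224 against 235 and 371, a difference of 0.88 ± 0.47 (adjusted p = 0.0637 in limma) that was below the median change (-0.64, adjusted p = 0.0210). POLA2 and PRIM1, subunits of the primase complex, were also below it, with 53.9 and 60.6 against 54.3 and 102 for POLA2. In nucleotide synthesis 13 of 16 genes were kept, 11 of them heightened, with a median of 1.68. CTPS1, which makes CTP, went from 65.2 and 81.6 to 282 and 361 and was above the median change (0.60, adjusted p = 0.0414 in limma). TK1, RRM1 and RRM2 were heightened with 24.7 and 31.6 against 121 and 111, 27.0 and 50.0 against 116 and 144, and 69.6 and 108 against 230 and 236. TYMS and DUT, both of thymidylate metabolism, were not (adjusted p = 0.0564 and 0.124 in limma).

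In homologous recombination and the Fanconi pathway 21 of 28 genes were kept. Of the 21, 20 were heightened (95.2%, against 91.3% of all genes with a kept promoter region). FANCG had 128 and 203 with DMSO against 356 and 361, BRCA2 had 44.9 and 76.4 against 161 and 236, and BRCA1 had 31.5 and 50.0 against 69.2 and 78.7. The groups did not overlap at these 3 promoters, as in 96.2% of kept regions. PALB2 (34.6 and 46.3) and RAD51C (29.6 and 27.8) were gained. In mismatch repair 5 of 7 genes were kept. All 5 were heightened, where 91.3% over all genes were, with a median log2 difference of 1.65. In the replication checkpoint 9 of 11 genes were kept and 7 heightened, among them CHEK1 with 89.9 and 166 against 220 and 264, while WEE1, the kinase that inhibits CDK1 and CDK2, had 71.9 and 89.5 against 146 and 148 and did not pass (adjusted p = 0.0617 in limma).

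Of 14 mitotic kinases and cyclins 4 were kept (28.6%, against 24.8% of all genes), 5 were in 1 DMSO list and both INX-315 lists, and 3 were gained. AURKA had 49.4 and 55.3 with DMSO against 165 and 204. AURKB was gained with 66.7 and 74.1, at 2.81 times the DMSO limit, CCNB2 with 37.0 and 32.4 and BUB1B with 22.2 and 32.4. PLK1 and BUB1 had a peak in 1 INX-315 list only. MASTL, the Greatwall kinase, was kept and below the median change, with 83.1 and 137 against 136 and 199 (-0.90, adjusted p = 0.00611 in limma). Among mitotic kinesins 6 of 13 were kept, and all 6 were heightened, where 91.3% over all genes were. KIF22 had 110 and 147 against 363 and 389, and CENPE, KIF15 and KIF18A were gained.

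In the centromere and kinetochore list 26 of 40 genes were kept and 23 heightened (88.5%, against 91.3% over all genes). ZWINT, a kinetochore protein, was above the median change, going from 15.7 and 34.2 to 141 and 134 (2.57 ± 0.44, adjusted p = 1.12e-06 in limma). CENPH, CENPU and SKA2 were below it, with 60.7 and 79.0 against 91.4 and 102 for CENPH. DLGAP5, a spindle protein, was further below, with 69.6 and 94.8 against 74.1 and 130 and overlapping groups (-1.25, adjusted p = 0.00202 in limma). Securin, PTTG1, was gained with 69.2 and 92.6, at 3.28 times the DMSO limit. Cohesin and condensin had 18 of 21 genes kept and 16 heightened, with STAG1 at 94.4 and 158 against 366 and 435, while SMC1A and SMC4 were below the median change.

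Among chromatin genes, NASP, a histone chaperone, had 182 and 337 with DMSO against 454 and 597, and EZH2, the catalytic subunit of polycomb repressive complex 2, had 148 and 195 against 373 and 496 (1.34 ± 0.47, adjusted p = 0.00586 in limma). Of 9 kept histone chaperones 7 were heightened and 3, HAT1, NASP and SUPT16H, were below the median change. DNMT1, the maintenance DNA methyltransferase, was below it too, with 71.9 and 116 against 151 and 120 (-0.96, adjusted p = 0.00798 in limma), whereas UHRF1, its recruiter, had 35.9 and 52.7 against 119 and 130 and was heightened.

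**Figure D4:**
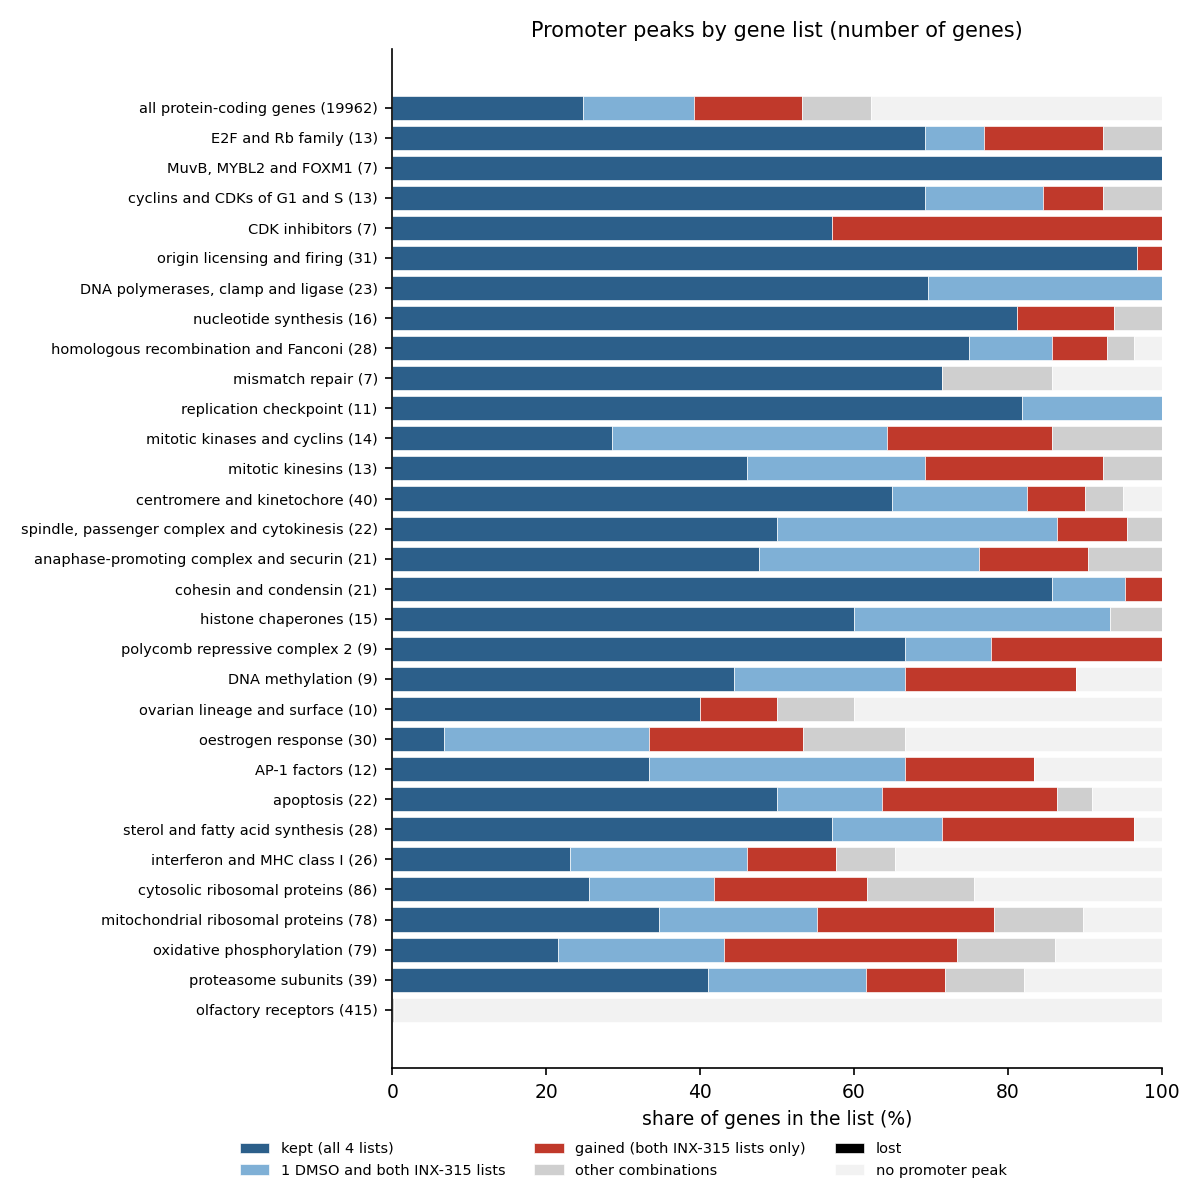
Share of the genes of each list (x axis, percent; number of genes in brackets) by the presence of a promoter peak in the 4 Kuramochi lists. Dark blue (kept) fills 96.8% of origin licensing and 24.8% of all protein-coding genes, red (gained) fills 30.4% of oxidative phosphorylation, and olfactory receptors have almost no peaks.

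Gained genes numbered 2788 of 19962 protein-coding genes (14.0%), and 3 genes were lost. The highest INX-315 promoter peak lay in a gained region in both lists for 2609 of them. For 11 genes it lay in a kept region, because the wider INX-315 peak reached a promoter window that the DMSO peak did not. Of the 20 gained genes with the highest rank in both INX-315 lists, MELTF, FOXH1, SHBG, NAGS, PYY and ELOVL6 had their peak in a kept region, and LTC4S in a region that 1 DMSO list also held. The other 13 had gained regions of their own, not all of which are named here, and NAGS with PYY and OMA1 with DAB1 shared 1 peak each. Without DMSO replicate 2 the gained genes numbered 5396. With lists of equal length there were 404 gained and 186 lost genes. The 20 genes above stayed gained in both cases, which the way they were chosen made certain. Of the 20, 14 were still gained when peaks were replaced by windows of 100 bp on each side of the summit, and 18 with promoters of 500 bp on each side.

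ZNF549, a zinc-finger gene on chromosome 19, had the strongest gained region of its own, chr19:57527226-57527986, with heights of 143 and 162 under INX-315. These rested on 58 and 35 fragments, and the lower height was 9.07 times the DMSO limit. MBD1, a reader of methylated CpG, had 96.3 and 120 (8.57 times the limit). RIMS3, PGM2, FADS3 and ITPRID2 had lower INX-315 heights of 98.8, 98.8, 74.1 and 76.6. The median INX-315 heights of gained regions were 27.2 and 32.4, and the genes named here were picked for their high rank in both lists. PPA1, DUSP23, OMA1, UBE3B and CSRNP2 were further genes with a gained region of their own, together with DAB1.

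The shares of gained genes in metabolic and housekeeping lists lay on both sides of the 14.0% over all genes, and no difference from it was tested. In oxidative phosphorylation 24 of 79 genes were gained (30.4%) and 17 were kept. All 17 were heightened, where 91.3% of all genes with a kept promoter region were. ATP5MC2, a subunit of the ATP synthase ring, had 44.5 and 60.2 under INX-315 (3.38 times the DMSO limit), and COX5A and NDUFB4, subunits of complexes IV and I, had 44.5 and 64.8 and 39.5 and 41.7. Mitochondrial ribosomal proteins had 18 of 78 gained (23.1%) and 27 kept, and cytosolic ribosomal proteins 17 of 86 gained (19.8%) and 22 kept. RPL21 had 56.8 and 88.0. Genes of this kind have many processed pseudogenes, and fragments could be shared with those. In sterol and fatty acid synthesis 7 of 28 genes were gained, SCD, SREBF1, CYP51A1, ELOVL5 and ELOVL6 among them, and 16 were kept. CYP51A1, an enzyme of cholesterol synthesis, had 42.0 and 74.1. MSMO1, another enzyme of the same pathway, was kept and above the median change, with 22.5 and 18.4 against 126 and 111 (2.54 ± 0.44, adjusted p = 1.12e-06 in limma). In the apoptosis list 11 of 22 genes were kept (50.0%, against 24.8% of all genes), 11 of the 11 were heightened, where 91.3% of all genes with a kept promoter region were, and BAX, BAK1, BID, BOK and HRK were gained (22.7%). Proteasome subunits had 16 of 39 kept and 4 gained (10.3%).

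In the oestrogen response 2 of 30 genes were kept (6.67%, against 24.8% of all genes) and 6 gained, with ELOVL2 at 79.0 and 97.3 under INX-315. In interferon and MHC class I 6 of 26 were kept (23.1%) and 3 gained (11.5%), namely HLA-B, HLA-C and TAP2, and 9 had no peak. HLA-B and HLA-C share sequence, so their peaks (14.8 and 18.5 at each) are uncertain. Of 12 AP-1 factors 4 were kept (33.3%) and ATF3 (51.9 and 74.1) and BATF3 were gained. Of 415 olfactory receptor genes, 1 had a promoter peak, in fewer than all lists of a group, and 414 had none.

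Away from promoters, the strongest gained region was intronic on chromosome 4, chr4:189810412-189810905, with heights of 81.5 and 88.0 under INX-315. The next were an intergenic region 43.4 kb from INSIG1 (66.7 and 92.6) and one 7.84 kb from LRCOL1 (74.1 and 69.5), an exonic one on chromosome 7 (59.3 and 64.8) and an intronic one 1.98 kb from a start of NEK7 (81.5 and 83.4). The 9 lost regions were low, with DMSO heights from 11.2 to 24.7. They included regions at starts of DDR1 (13.5 and 23.7), PRKAG2 (22.5 and 18.4) and HBP1 (11.2 and 23.7), the last a repressor that binds Rb. Between 5 and 11 fragments lay under the DMSO summits of the 9 regions, and DDR1 and PRKAG2 had other promoter peaks in all 4 lists.

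The E2F motif of the sequences printed above was present in a larger share of kept than of gained promoters, and the order was the reverse away from promoters. Over windows of 201 bases at the highest summit of a region, it was present in 6.52% of 4338 kept promoters and 3.42% of 3096 gained promoters, and in 3.35% of 179 kept and 5.28% of 417 gained regions elsewhere. Windows of the same length at the start sites of all protein-coding genes held it in 2.83% and those of genes with no peak in 1.22%. Within kept promoters it was in 9.37% of the tertile with the highest DMSO heights and in 4.42% of the lowest tertile. By the size of the change it was in 7.68%, 6.57% and 5.33% of the lowest, middle and highest tertiles. It was in 10.4% of the 163 promoters below the median change and in 4.17% of the 96 above it, which is 17 and 4 promoters. The CHR motif TTTGAA, which MuvB complexes bind, was in 4.17% of kept and 2.84% of gained promoters. It was in 6.17% of all start sites and in 9.46% of those of genes with no peak. The NF-Y motif CCAAT was in 24.4% and 16.0%, against 25.2% and 24.9%. Start sites of genes with no peak held a median of 6 CpG in the window, against 20 in kept promoters. The part of base composition and of window placement in these shares was not tested. Both strands were searched, windows could hold several motifs, and a match is a string of letters and not a shown site. Promoters below the median change held a median of 12 CpG in the window and those above it 22, against 20 over kept promoters, which is a further difference between these sets beside the motif.

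**Figure D5:**
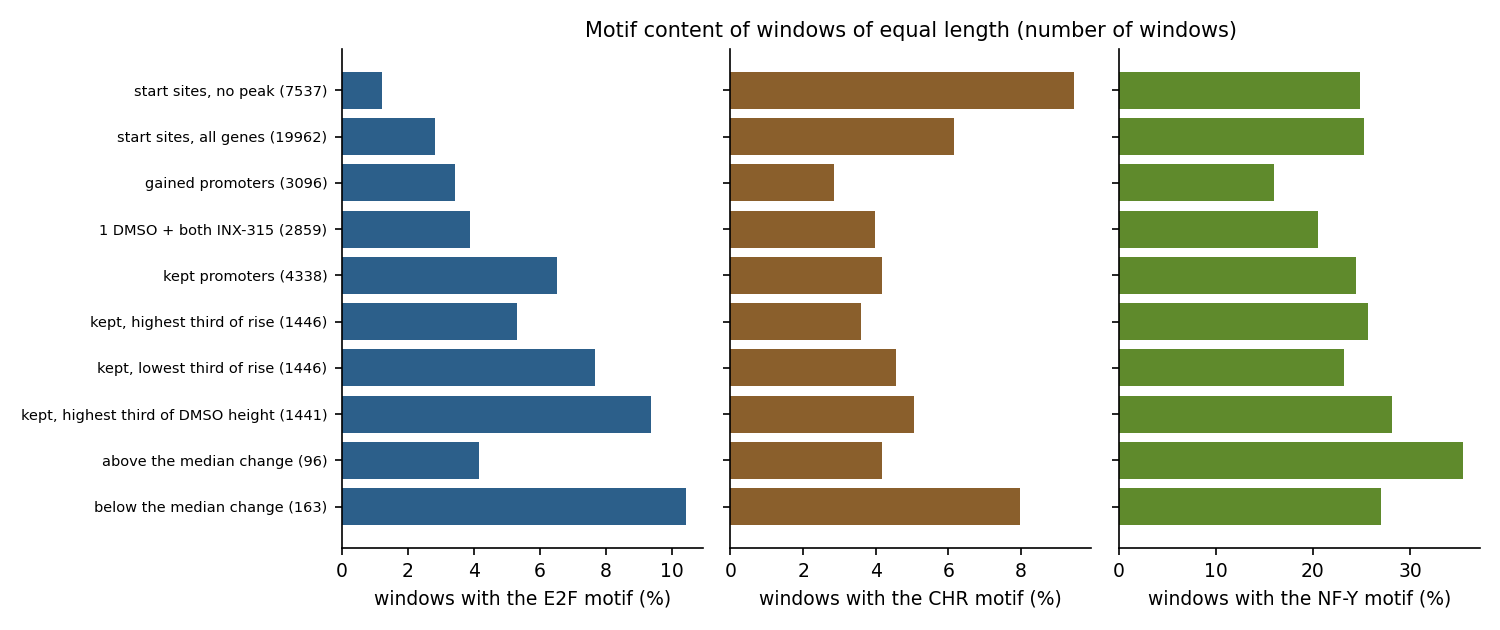
Share of windows (x axes, percent) that hold the E2F, CHR or NF-Y motif, for start sites and for classes of promoter regions, with the number of windows in brackets. The E2F share is 1.22% at start sites without a peak, 3.42% in gained and 6.52% in kept promoters.

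A difference between Kuramochi and OVCAR-3 was tested in the 3269 regions called in all 8 Rb lists. No region passed (0%, limma with line-by-treatment interaction), and at an unadjusted p under 0.05 there were 4 higher and 88 lower in Kuramochi. That balance did not hold, as after centring it was 174 and 147, without Kuramochi DMSO replicate 2 it was 41 and 34, and without OVCAR-3 INX-315 replicate 2 it was 24 and 28. In OVCAR-3 alone the median log2 difference of kept regions was 1.77, and 4696 of 4886 regions were heightened. No change of height can therefore be called particular to Kuramochi. Of the 3513 gained Kuramochi regions, 1213 (34.5%) overlapped a peak of at least 1 OVCAR-3 DMSO list, 2497 (71.1%) overlapped peaks of both OVCAR-3 INX-315 lists, and 369 (10.5%) overlapped none of the 4 OVCAR-3 lists. Of the 4517 kept regions, 89.0%, 96.4% and 1.51% did so.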

How the data were processed

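Rb CUT&RUN peak lists of 4 Kuramochi libraries, 4 OVCAR-3 libraries and 1 IgG2a library per line were used. Per the labels and the methods of the study, the authors aligned reads to hg38 with Bowtie2 2.3.4.1 and called peaks per library with MACS2 2.2.7.1 against IgG at q 0.05, and deepTools 3.5.0 and DiffBind were also named. Duplicates were kept. As deposited, each peak has a fold enrichment at the summit (ratio to local background), the −log10 p and −log10 q of its Poisson test, and a display score, and these values were not normalised between libraries.

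From the fold enrichment and −log10 p, the whole number of fragments at each summit and the local background were recovered (tolerance 3e-05), with a single solution for 99.5% to 100% of peaks per Kuramochi list. Depth was taken as the lowest background of a library, and height as fragments over depth. Peaks on chromosomes 1 to 22 and X were merged into regions and placed on GENCODE release 44. Kept regions were tested on log2 height with limma 3.58.1 (R 4.3.3, empirical Bayes with trend, Benjamini-Hochberg, threshold 0.05), also after centring each library on its median region. The limma step was tested on simulated data. The analysis of read counts made by the study cannot be repeated from peak lists.

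Members and gene lists were chosen with earlier results of these data known. Genes named by rule were the 20 gained genes with the highest lower percentile of fold enrichment in the INX-315 lists, the 15 promoters with the largest difference in each direction, up to 4 members of a list, and 5 gained non-promoter regions. As 0 regions were lowered, the promoters furthest below the median change were named instead, and further list members and the kept non-promoter regions were chosen after their values were seen. Some genes are not reported here. Over regions, the deviations of same-numbered replicates were not correlated (-0.000307), so replicate numbers were not used as pairs. This correlation cannot see a shift of a whole library. Replicate 1 was the lower in both groups (median log2 difference -0.56 for DMSO and -0.23 for INX-315). Alternatives covered the q threshold, list length, summit windows, promoter width, a fragment minimum, the listed fold enrichment, centring, a replicate block and leaving out each library, and those for centred calls and kept regions were added after seeing the data. Python 3.11.15 was used for the other steps.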

Additional observations from a re-analysis of the deposited data

How the results depend on the processing

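The heightening of kept regions kept its direction in the fits on uncentred heights. Centring removes the shared rise by construction, and the median difference between lines went from -0.26 to 0.04 with it, to 0.04 without Kuramochi DMSO replicate 2 and to 0.01 without OVCAR-3 INX-315 replicate 2, with 0 regions called in each. The log2 ratio of peak numbers, 1.03, ranged from 0.70 to 1.46 when single libraries were left out. Gained regions numbered 3513 with all libraries and from 3820 to 7213 without single ones, and gained genes 2788 and from 3059 to 5396. Leaving out a library drops a condition, so these larger numbers follow from the definition. Lists cut to equal length gave 410 and 404. Heightened regions, 4057, ranged from 469 to 5153 without single libraries, and were 2297 of 2451 with a mean of at least 20 fragments and 98 after centring. Lowered regions, 0, ranged from 0 to 5 without single libraries, and were 4 on the listed fold enrichment and 185 after centring. With a replicate block, 4277 regions were heightened and 1 lowered, 125 and 210 after centring (added after seeing the data), and 1 region differed between lines against 0. The 15 promoters with the largest rises were chosen by these heights, so their calls in other fits are not separate support. They were called in every fit of all libraries that held them, but 9 were held at q 0.001 or 20 fragments. Centred calls of single promoters were lost in most fits with 1 library left out, in which the lone library of an arm is assumed to vary like the others. The cause of these shifts was not tested, nor the part of depth in them.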

Other observations

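On the X chromosome few promoters were bound under DMSO. Of 859 protein-coding genes there, 44 (5.12%) were kept, while on the autosomes the share ran from 12.8% on chromosome 18 to 30.4% on chromosome 8. Gained genes were as frequent as elsewhere, 119 or 13.9%, against 10.6% to 19.5% on the autosomes. Genes with no promoter peak made up 63.3% on X. SMC1A, a cohesin subunit, was among the kept X-linked genes, with heights of 40.4 and 60.6 in the DMSO libraries and 81.5 and 78.7 in the INX-315 libraries. The copy number of the chromosome was not measured, and its part in these shares was not tested.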
